A study of Mus musculus with 11 samples.

Results

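The 40 genes described here stood higher in mouse gingival epithelium under a tooth ligature than in epithelium of mice without one. They were chosen by a measured value, the mean normalised count of the ligature libraries plus 1 divided by the mean of the naive libraries plus 1, which had to be 1.2 or more. Of the 178 named genes in the deposited table, 53 reached that ratio, and 13 of these (cell division genes, Krt10, Nfib, Msi1, Ppp1r3b, Pfkp, Nab2, Smr2 and Scgb2b12) were set aside by name. The difference between ligature and naive libraries is therefore given below as a description, without a test. What the choice did not fix is where each gene stood after the ligature had been taken off.

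The series' design text describes the animals as male B6 mice. In the ligature group (n = 3 libraries) silk thread had been tied around the second upper molar on both sides, it was removed on day 3 from the mice of the removal group (n = 4), and the naive group (n = 4) had none. Gingiva was treated with Dispase and the epithelial sheet was lifted off before RNA was taken, so every library is whole epithelium, and a change in the kinds of cells present cannot be told apart from a change in RNA per cell. The labels used here do not give the day on which removal tissue was collected, nor say whether each library is a different mouse, so the p-values below measure only the spread between these libraries.

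A thread around a tooth gathers bacterial plaque and is a standard way of provoking periodontitis in mice. The gingival epithelium that faces it is a stratified sheet renewed from basal cells, which rest on a basement membrane, divide, and hand daughters to the differentiating layers above. The 40 genes are not one pathway. By textbook function 8 act in transcription and chromatin, 2 bind RNA, 8 act at the cell surface, in matrix or in signalling, 8 belong to the cytoskeleton, nuclear envelope or cilia, 7 handle lipids, membranes or ions, 5 are noncoding RNAs or gene models, and 2 encode little characterised proteins. Among those 5, RefSeq lists 2310057J18Rik and Gm14391 as protein coding and Dlx4os and Oip5os1 as long noncoding RNAs, and no type was found for Gm11940.

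Counts over the rows of the table ran from 282274 to 503570 per library, which is the content of a selected table and not the sequencing depth, and counts of any 2 libraries in a group differed by far more than sampling noise. The deposited batch correction divides the 11 libraries into set A (naive 1 and 2, ligature 1, removal 2, 3 and 4) and set B (naive 3 and 4, ligature 2 and 3, removal 1). What the sets stand for is not given in the sources used here. Removal 1 is thus the only removal library of set B, and it stood apart: Usp9y, a Y-linked gene, was counted 30 times there and 0 times in the other 10 libraries. A count of 0 in those 10 goes against the description of the mice as male. Of 42 marker genes on 8 cell type lists, only Krt10, Cd68 and Smr2 are in the table and none is among the 40. Krt10 is the only 1 of the 10 listed gingival epithelium genes present, too few to check the epithelial label. It measured 93534.5 ± 11613.0 normalised counts in naive (SD, n = 4), 145631.6 ± 36955.0 in ligature (SD, n = 3) and 132468.3 ± 32347.3 in removal libraries (SD, n = 4). Cd68, a macrophage marker, measured 287 ± 54.6 normalised counts in naive (SD, n = 4), 179.7 ± 10.2 in ligature (SD, n = 3) and 222 ± 14.2 in removal libraries (SD, n = 4). Smr2, on the salivary gland list, was counted 0 times in every naive library and 5, 3 and 2 times in ligature 1, 2 and 3. In removal 1 it was counted 7 times, and 0 times in removal 2, 3 and 4. The part of these markers and of the library sets in the results was not tested.

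The ratio of ligature to naive ran from 1.21 for Fryl to 7.69 for 2310057J18Rik, with a median of 1.37, and the second highest was 2.28. Most of the differences were therefore small. All 3 ligature libraries lay above all 4 naive libraries in 34 of the 40 genes, and the ratio was above 1 within both library sets in 40 of 40. Both counts use the values by which the genes were chosen, so the choice itself favours them and they lend it no support. The same counts over all rows of the table are not given here. The genes just inside the limit were Fryl at 1.21, Pja2 at 1.23, Hnrnpr at 1.25 and Cav2 at 1.27, and those just outside were Slc1a4 at 1.175, Map3k2 at 1.167, Ppp3cb at 1.165 and Ube3a at 1.164, so the limit cuts through a continuous range.

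After removal the genes took different positions between the naive and the ligature level. With the deposited scaling the removal mean lay between the other 2 means in 34 genes, above the ligature mean in 5 (Ptpn4, Vma21, Lnpk, Pja2 and Arhgap18, of which only Vma21 stayed above with TMM scaling) and below the naive mean in 1 (2310057J18Rik). The median gene kept 53.4% of its ligature difference, taken as removal minus naive divided by ligature minus naive. All 4 removal libraries lay above all 4 naive libraries in 18 of the 40 genes, against 15.7% of the 178 rows of the whole table. By role, the median share kept was 72.9% at the cell surface and in signalling, 66.0% among lipid, membrane and ion genes, 39.0% in the cytoskeletal and ciliary group and 38.75% in transcription and chromatin, with wide ranges inside each.

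**Figure D1:**
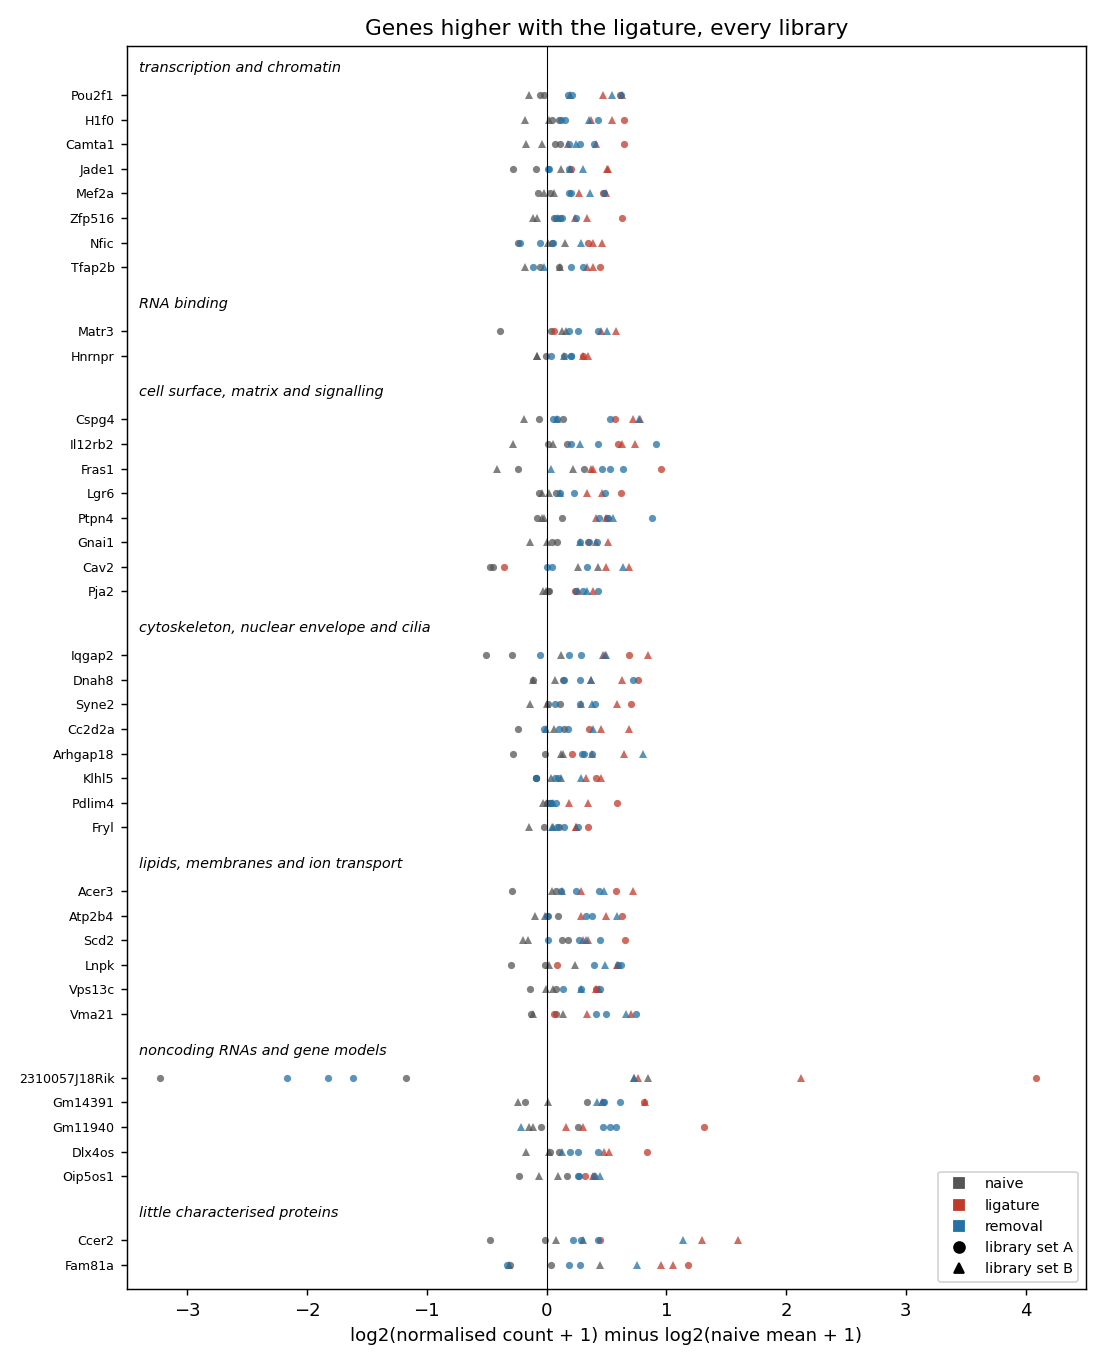
Log2 ratio of each library's normalised count plus 1 to the naive mean plus 1 (x axis) for 39 of the 40 genes, grouped by role on the y axis, with colours for the groups, circles for library set A and triangles for set B. Over all 40, the 3 ligature libraries lie to the right of all naive libraries in 34 genes, which the choice of genes by these values favours. The removal mean lies between the naive and ligature means in 34. 2310057J18Rik spreads far more widely than the other genes.

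In the fit across the whole table (edgeR's quasi-likelihood test, Benjamini-Hochberg adjustment over 176 tested genes), 13 of the 40 were higher in removal than in naive libraries at an adjusted p under 0.05 and none was lower. In the table as a whole 13.1% of tested genes were called higher. Because the 40 were chosen for low naive and high ligature values, and the removal comparisons use those same naive or ligature libraries, the choice itself tilts removal against naive toward higher values and removal against ligature toward lower ones. The median log2 difference from naive was 0.29 for the 40 and -0.17 for all tested genes. The 13 were the phosphatase gene Ptpn4, the G protein gene Gnai1, the cytokine receptor gene Il12rb2, the ubiquitin ligase gene Pja2, the membrane genes Vma21, Lnpk, Vps13c and Atp2b4, the transcription factor genes Pou2f1 and Mef2a, the GTPase regulator gene Arhgap18, the long noncoding RNA Oip5os1 and the gene model Gm14391. With removal 1 left out, 8 remained called (Ptpn4, Vma21, Lnpk, Il12rb2, Gnai1, Oip5os1, Pja2 and Mef2a). Within each library set alone all 13 pointed the same way. The sets are parts of the libraries that gave the calls, and set B has 1 removal library, so this is not a separate check. Ptpn4, Vma21, Gnai1, Oip5os1 and Pja2 stayed called whichever single library was left out, and the count was lowest without removal 3, at 5, and highest without ligature 1, at 18. Over the table, 13 and 30 of 176 tested genes were called higher in those fits. Without removal 1, 16 of 175 were. The highest adjusted p with 1 library left out was 0.0644 for Mef2a (lost without naive 1, naive 4 or removal 3), 0.0657 for Lnpk (naive 1, 2 or 3, removal 3 or 4), 0.0854 for Pou2f1 (naive 1, 2 or 4, removal 1 or 3), 0.0979 for Vps13c (any naive, removal 1, 2 or 3) and 0.0995 for Gm14391 (naive 2, 3 or 4, any removal). It was 0.12 for Il12rb2 (any naive, ligature 3, removal 2 or 3), 0.121 for Atp2b4 (any naive, ligature 3, removal 1, 2 or 3) and 0.142 for Arhgap18, which stayed called in 1 of 11 such fits (that without ligature 1).

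Against ligature libraries 3 of the 40 were lower after removal, 2310057J18Rik and Pdlim4 among them, and none was higher, where 2.84% of tested genes in the table were called lower. At an unadjusted p under 0.05 the number was 10, a limit for which no count over the table is given here. The number called moved with the libraries used: leaving out any one of the 3 ligature libraries or of removal 2, 3 and 4 left 0 of the 40 called by edgeR (6 to 13 at an unadjusted p under 0.05), while leaving out removal 1 gave 8. Over the table, 11 of 175 tested genes were called lower without removal 1, and 0 or 1 of 176 in those other fits. Across all fits with 1 library left out, the log2 difference itself stayed below 0, from -0.42 to -0.22 for Pdlim4 and from -5.37 to -2.53 for 2310057J18Rik.

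The scaling of the libraries bears on these counts. The deposited size factors, used here, left the median of all tested genes at -0.17 (log2, removal minus naive), and TMM factors computed from the table moved it to 0.03. Of all tested genes 23 were called higher and 43 lower with the deposited factors, against 50 higher and 22 lower with TMM. Among the 40, TMM gave 28 higher and 0 lower, with the 13 above included. For removal against ligature the table held 30 genes called higher and 5 called lower, which became 17 and 12 under TMM and 16 and 30 under median-of-ratios factors. Under TMM the log2 difference from ligature turned to -0.02 for Ptpn4, -0.08 for Lnpk, -0.11 for Arhgap18 and -0.12 for Pja2, and stayed at 0.03 for Vma21, so the order of the removal and ligature levels in these 5 genes is not settled, while their excess over naive held under both scalings.

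**Figure D2:**
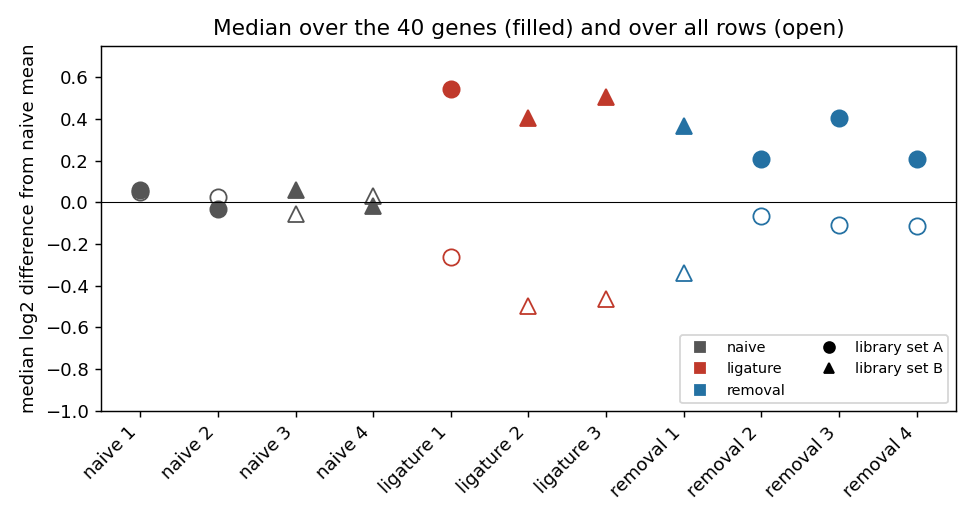
Median log2 difference from the naive mean (y axis) in each of the 11 libraries (x axis), over the 40 genes (filled) and over the rows of the table (open), with circles for library set A and triangles for set B. Rows with a very low mean count were left out of the open symbols. The median of the 40 is 0.40 to 0.55 in ligature libraries, where the median over those rows is -0.50 to -0.26. The ligature medians use the values by which the 40 were chosen, so the choice itself favours them. In removal libraries the median of the 40 is 0.21 to 0.41, and that over those rows is -0.34 to -0.07.

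Of the 8 genes of the cell surface, matrix and signalling, 4 were higher after removal than in naive libraries (Ptpn4, Gnai1, Il12rb2 and Pja2), and the share of the ligature difference kept ran from 47.0% for Lgr6 to 135.5% for Ptpn4. Ptpn4, a cytoplasmic tyrosine phosphatase with a PDZ domain, measured 416, 359, 375 and 369 normalised counts in the naive libraries, 540.2, 506 and 536 under the ligature and 559, 543, 701 and 516 after removal. Every removal library was above every naive one, and removal 3 was the highest of the 11. Its removal level was higher than naive by 0.61 ± 0.11 on the log2 scale (SE, adjusted p = 0.00778, edgeR). Its removal mean was 579.7 ± 82.8 (SD, n = 4) against 527 ± 18.6 under the ligature (SD, n = 3), a log2 difference of 0.14 ± 0.12 (SE, adjusted p = 0.364, edgeR) that was not called.

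Pja2 encodes a ubiquitin ligase that acts on regulatory subunits of protein kinase A. Its naive libraries measured 816.5, 808, 787 and 800.5, its ligature libraries 945, 964 and 1052, and its removal libraries 1013, 994, 1084 and 954 normalised counts. The naive libraries were close together and the other groups overlapped each other fully above them, so a small difference from naive, 0.33 ± 0.08 (log2, SE), had an adjusted p of 0.0119 (edgeR). Gnai1, an inhibitory G protein alpha subunit, measured 605.5, 588, 520.2 and 571 in naive, 727, 759.9 and 816.5 in ligature and 692, 766, 732.5 and 694.5 in removal libraries. Here too no removal library reached down to the naive range, and the log2 difference was 0.34 ± 0.09 (SE, adjusted p = 0.0124, edgeR).

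Il12rb2, a chain of the interleukin-12 receptor, measured 218, 196, 201 and 159 in naive, 293, 323 and 300.4 in ligature and 234.5, 262, 366 and 222.5 in removal libraries. Removal 4 exceeded naive 1, the highest of its group, by little, and removal 3 exceeded every ligature library. The log2 difference from naive was 0.49 ± 0.17 (SE, adjusted p = 0.042, edgeR), and it was lost without removal 2, removal 3, ligature 3 or any one naive library, with the adjusted p reaching 0.12. Cspg4, the NG2 proteoglycan, measured 402, 351, 389.5 and 322 in naive, 545, 630.5 and 605 in ligature and 624, 380.0, 529 and 389 in removal libraries. Removal 1 and 3 were near the ligature level and removal 2 and 4 within the naive range, and the difference from naive was not called (0.39 ± 0.16, log2, SE, adjusted p = 0.0656, edgeR).

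Fras1, a basement membrane protein of epithelia, ranged over 347 to 574 in naive, 600.4 to 898 in ligature and 476 to 719.8 in removal libraries, with ligature 1 the highest. Lgr6, an R-spondin receptor that marks stem cells of some epithelia, measured 158, 175, 161 and 168 in naive and 178.7, 195, 233 and 178.8 in removal libraries, and 209 to 255 under the ligature. Its removal libraries all lay above its naive ones by a margin too small to be called (0.24 ± 0.13, log2, SE, adjusted p = 0.141, edgeR). Cav2, a caveolin of membrane pits, differed between the library sets: it measured 180.4 and 183 in the naive libraries of set A, 337 and 299.6 in those of set B, 195 in ligature 1 and 352 and 403 in ligature 2 and 3. Within each set its ratio was 1.07 and 1.19, below the limit of 1.2 that the pooled libraries passed. Removal libraries measured 251, 258 and 316 in set A and 391 in set B, above the naive mean of their set (182 and 318). The difference between removal and naive was 0.29 ± 0.27 (log2, SE, adjusted p = 0.362, edgeR), and 0.51 with an adjusted p of 0.00647 with the library set as a term.

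The lipid, membrane and ion transport genes included the best kept difference of the 40. Vma21, an assembly factor of the vacuolar proton pump that acidifies lysosomes, measured 305, 264, 267 and 317 in naive, 301, 365 and 472 in ligature and 456, 383, 483 and 407 in removal libraries. Its ligature libraries spread from inside the naive range to far above it, whereas all 4 removal libraries were above all naive ones. It was higher after removal than in naive by 0.58 ± 0.15 (log2, SE, adjusted p = 0.0124, edgeR). Within set A its ligature to naive ratio was only 1.06, against 1.43 within set B, with 1 and 2 ligature libraries respectively.

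Lnpk, which encodes lunapark, a protein of the junctions of the endoplasmic reticulum network, measured 143.5, 117, 147 and 170.5 in naive, 153, 217 and 218.5 in ligature and 203, 190.5, 222 and 218 in removal libraries. As for Vma21, ligature 1 lay within the naive range and every removal library above it, with a log2 difference from naive of 0.53 ± 0.16 (SE, adjusted p = 0.027, edgeR). Vps13c, a lipid transfer protein at organelle contacts, measured 425, 364, 417 and 399.8 in naive, 534, 534 and 546 in ligature and 489, 489, 547 and 442 in removal libraries. It was higher after removal by 0.29 ± 0.1 (log2, SE, adjusted p = 0.0362, edgeR), and removal 4 was close to naive 1. Atp2b4, a plasma membrane calcium pump, ran from 1299 to 1482 in naive and from 1697 to 2156 in ligature libraries, and measured 2087, 1744.5, 1813 and 1394 in removal libraries. Removal 4 lay inside the naive range, and the call (0.34 ± 0.12, log2, SE, adjusted p = 0.0448, edgeR) was lost without any one naive library, ligature 3 or removal 1, 2 or 3, with the highest adjusted p, 0.121, without removal 1.

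Scd2, a stearoyl-CoA desaturase and the most abundant of the 40 by mean normalised count, measured 5582.5, 5799, 4472 and 4604 in naive, 8076, 6504 and 6325.5 in ligature and 6429, 6178, 6987 and 5153 in removal libraries. Its removal libraries reached from the naive to the ligature range, and neither removal difference was called. Acer3, an alkaline ceramidase, lay between as well, at 454 ± 53.0 after removal (SD, n = 4) against 361 ± 44.3 in naive (SD, n = 4) and 525 ± 78.6 under the ligature (SD, n = 3).

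**Figure D3:**
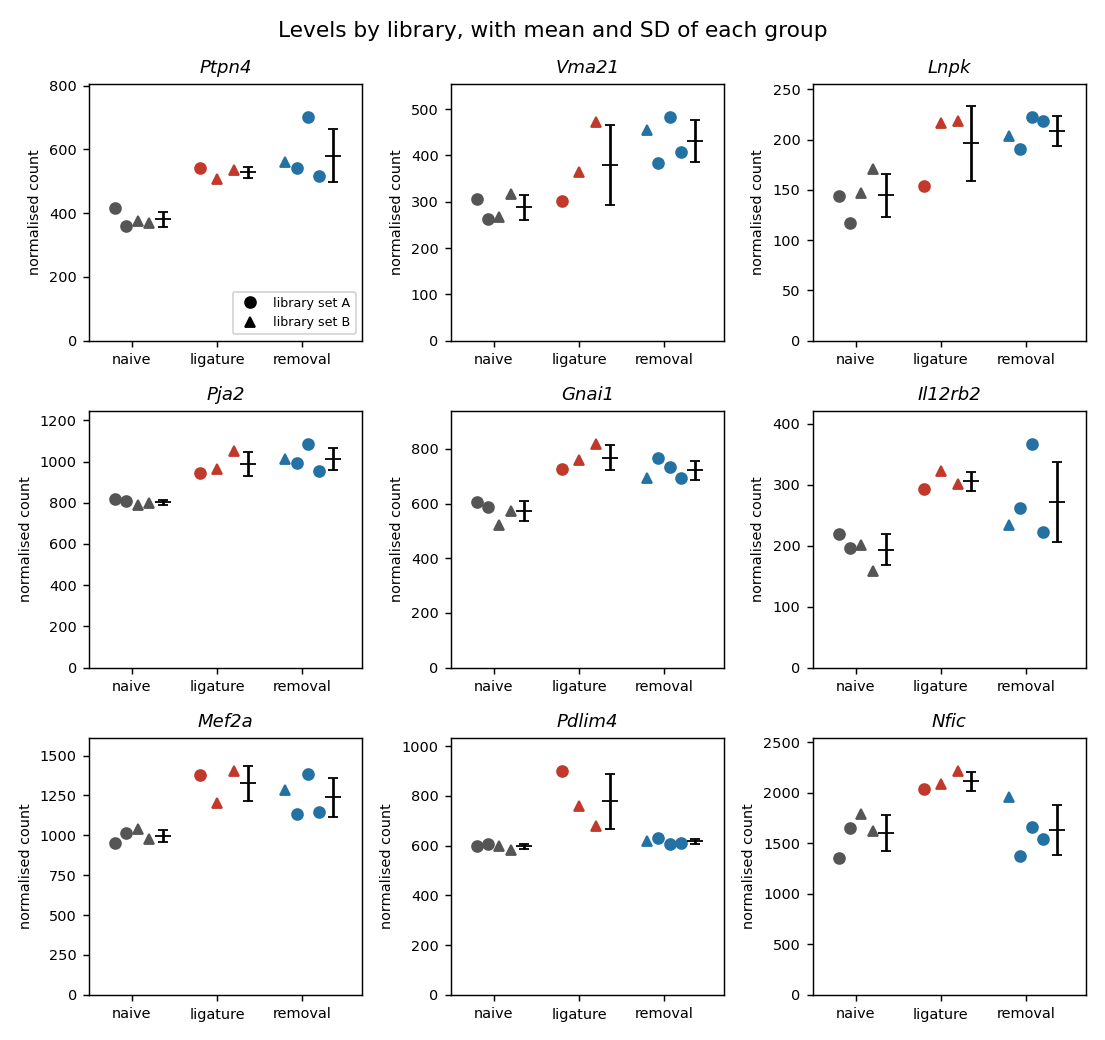
Normalised counts (y axis, from 0) of 9 genes in the naive, ligature and removal libraries, with circles for library set A, triangles for set B, and a bar for the mean and SD of each group. Ptpn4, Vma21, Lnpk, Pja2, Gnai1 and Il12rb2 have all 4 removal libraries above the naive libraries, as does Mef2a, whereas those of Pdlim4 lie just above its naive range and the mean of those of Nfic lies within its naive range.

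The 5 genes whose removal mean exceeded the ligature mean with the deposited scaling had the highest levels after the thread was off, relative to their ligature difference, and promoter sequence is shown for 4 of them so that their starts can be compared. The sequences are RefSeq's for build GRCm38.p6, with 250 bases before and 50 after the annotated start, written in the direction of the gene. Capitals mark a match to one of the motifs searched, an AP-2 motif in Ptpn4, an E-box in Lnpk and Vma21, an Egr motif in Vma21 and an AP-1 motif in Arhgap18. Vma21 has 2 annotated starts, of which the downstream one is shown.
Ptpn4, chr1:119837022-119837321, minus strand: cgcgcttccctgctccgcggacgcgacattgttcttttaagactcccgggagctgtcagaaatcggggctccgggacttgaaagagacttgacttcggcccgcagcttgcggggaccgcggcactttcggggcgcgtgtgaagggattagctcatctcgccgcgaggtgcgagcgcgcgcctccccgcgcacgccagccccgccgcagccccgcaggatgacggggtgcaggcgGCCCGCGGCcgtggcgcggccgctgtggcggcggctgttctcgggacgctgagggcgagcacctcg
Lnpk, chr2:74578899-74579198, minus strand: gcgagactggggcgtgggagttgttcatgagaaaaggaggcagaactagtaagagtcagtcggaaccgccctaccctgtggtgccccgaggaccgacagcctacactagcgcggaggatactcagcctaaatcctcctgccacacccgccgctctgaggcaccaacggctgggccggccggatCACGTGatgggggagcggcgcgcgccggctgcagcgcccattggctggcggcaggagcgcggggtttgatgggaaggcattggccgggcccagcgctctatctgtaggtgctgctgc
Vma21, chrX:71816508-71816807, plus strand: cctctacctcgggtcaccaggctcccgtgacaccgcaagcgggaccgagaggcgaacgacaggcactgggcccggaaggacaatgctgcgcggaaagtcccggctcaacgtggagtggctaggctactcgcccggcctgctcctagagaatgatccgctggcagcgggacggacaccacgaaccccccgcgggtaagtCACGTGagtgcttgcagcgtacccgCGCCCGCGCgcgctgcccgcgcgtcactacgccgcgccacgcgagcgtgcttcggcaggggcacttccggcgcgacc
Arhgap18, chr10:26772262-26772561, plus strand: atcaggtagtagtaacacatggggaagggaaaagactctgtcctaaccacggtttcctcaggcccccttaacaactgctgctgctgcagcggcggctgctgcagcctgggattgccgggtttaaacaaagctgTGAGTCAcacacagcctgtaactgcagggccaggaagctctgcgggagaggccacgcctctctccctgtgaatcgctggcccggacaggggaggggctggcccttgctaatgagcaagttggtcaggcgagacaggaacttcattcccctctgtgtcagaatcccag

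RefSeq promoters were found for 33 of the 40 genes (42 starts), and each was searched on both strands for sites of factor families that the 40 include or that act in epithelium. The AP-2 motif GCCNNNGGC stood in 10 of the 42 promoters (23.8%), against 16.6% of all 32851 promoters of the same length. The E-box CACGTG stood in 5 (11.9%, against 7.15%), the Egr motif GCGNGGGCG in 6 (14.3%, against 5.55%) and the AP-1 motif TGANTCA in 4 (9.52%, against 7.81%). The octamer ATGCAAAT, which POU factors such as the product of Pou2f1 bind, was in 0 (1.74% of all promoters), the NFI palindrome also in 0 (0.0365%), and the MEF2 site in 1, that of Mef2a itself (2.38%, against 3.19%). No motif was shared by all 5 genes, and the promoter of Pja2 held none of those searched. In the printed sequences no marked matches overlap. These are matches of letters in a window and no test was made of them.

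Among transcription and chromatin genes, Pou2f1 and Mef2a were higher after removal than in naive libraries. Pou2f1, an octamer-binding POU factor, measured 415.6, 407, 482 and 381 in naive, 647, 585 and 651 in ligature and 616, 478, 649 and 488 in removal libraries. Removal 1 and 3 matched the ligature range and removal 2 and 4 were at the upper edge of naive, with a log2 difference of 0.4 ± 0.12 (SE, adjusted p = 0.027, edgeR) that was not called without removal 1 (0.35, adjusted p = 0.0675). Mef2a, a MADS-box factor, measured 949, 1014, 1039 and 978 in naive, 1380.3, 1201 and 1400.5 in ligature and 1283, 1136, 1386 and 1146 in removal libraries. No removal library overlapped the naive range, and the log2 difference was 0.31 ± 0.09 (SE, adjusted p = 0.0205, edgeR).

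Nfic, a nuclear factor I protein known for its part in tooth root formation, kept 6.0% of its ligature difference. It measured 1354.5, 1649, 1786.5 and 1619 in naive, 2035, 2091 and 2211 in ligature and 1956, 1374, 1663 and 1538 in removal libraries, so that removal 1 alone approached the ligature level. Its log2 difference between removal and ligature was -0.37 ± 0.12 (SE, adjusted p = 0.0542, edgeR), and -0.47 with an adjusted p of 0.0138 when removal 1 was left out. Tfap2b, an AP-2 factor, measured 2019, 1815.5, 2036 and 1664 in naive, 2566, 2462 and 2383 in ligature and 1851, 1744.5, 2323 and 2173.5 in removal libraries. Its removal libraries all lay below its ligature libraries, 2 within the naive range and 2 above it, and the difference from ligature was not called (-0.29 ± 0.11, log2, SE, adjusted p = 0.0833, edgeR).

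H1f0, the linker histone H1.0 of cells leaving division, measured 2230.1, 2324, 1917 and 2191.5 in naive, 3395, 2802 and 3156 in ligature and 2776, 2409.7, 2921 and 2349.8 in removal libraries. Each removal library was above each naive one, yet the difference missed the threshold (0.27 ± 0.1, log2, SE, adjusted p = 0.0508, edgeR). Camta1, a calmodulin-binding activator, had the same arrangement, with 628 to 724 after removal, 489 to 596 in naive and 623 to 862 under the ligature (0.28 ± 0.11, log2, SE, adjusted p = 0.0656, edgeR). Zfp516, a zinc finger factor, and Jade1, a scaffold of histone acetyltransferase complexes, kept 30.4% and 29.4% of their differences and overlapped naive. The RNA-binding genes differed from each other: Matr3, of the nuclear matrix, kept 90.4% (548 to 681 after removal, 366 to 537 in naive) and Hnrnpr 43.4%, and neither was called.

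The cytoskeletal, nuclear envelope and ciliary genes kept a median of 39.0% of their ligature difference. Pdlim4, a PDZ and LIM domain protein of actin fibres, measured 598, 607, 598 and 584 in naive, 898, 758 and 679.8 in ligature and 619, 631, 608 and 612 in removal libraries. Naive and removal libraries were each within a narrow band, the removal band just above the naive one, while the ligature libraries were spread widely. Removal minus ligature was -0.33 ± 0.1 (log2, SE, adjusted p = 0.0318, edgeR), and 11.3% of the ligature difference was left. Arhgap18, a GTPase activating protein, measured 122, 147, 164 and 162 in naive, 173, 194 and 233 in ligature and 261, 185, 194 and 183 in removal libraries. Removal 1 was the highest of the 11, and the difference from naive (0.47 ± 0.17, log2, SE, adjusted p = 0.046, edgeR) was 0.33 with an adjusted p of 0.142 without it, and was also lost without any other removal library, any naive library, ligature 2 or ligature 3.

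Iqgap2, a scaffold that binds Rac and Cdc42, measured 217, 187, 368 and 288 in naive, 428, 478 and 373 in ligature and 375, 255, 324 and 301.5 in removal libraries. Its naive libraries differed by set, 202 on average in set A against 328 in set B, and the removal libraries lay within or just above the naive range. Syne2, a giant nesprin that ties the nucleus to the cytoskeleton, ran from 1071 to 1281 in naive, 1445.0 to 1928 in ligature and 1242 to 1567 in removal libraries. Dnah8, an axonemal dynein heavy chain, had all removal libraries (262 to 391) above all naive ones (218 to 259.6) and missed the threshold (0.4 ± 0.15, log2, SE, adjusted p = 0.0507, edgeR). Cc2d2a, of the ciliary transition zone, the kelch protein gene Klhl5 and the furry-like gene Fryl kept 30.1%, 21.8% and 47.7%, with removal libraries overlapping naive.

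**Figure D4:**
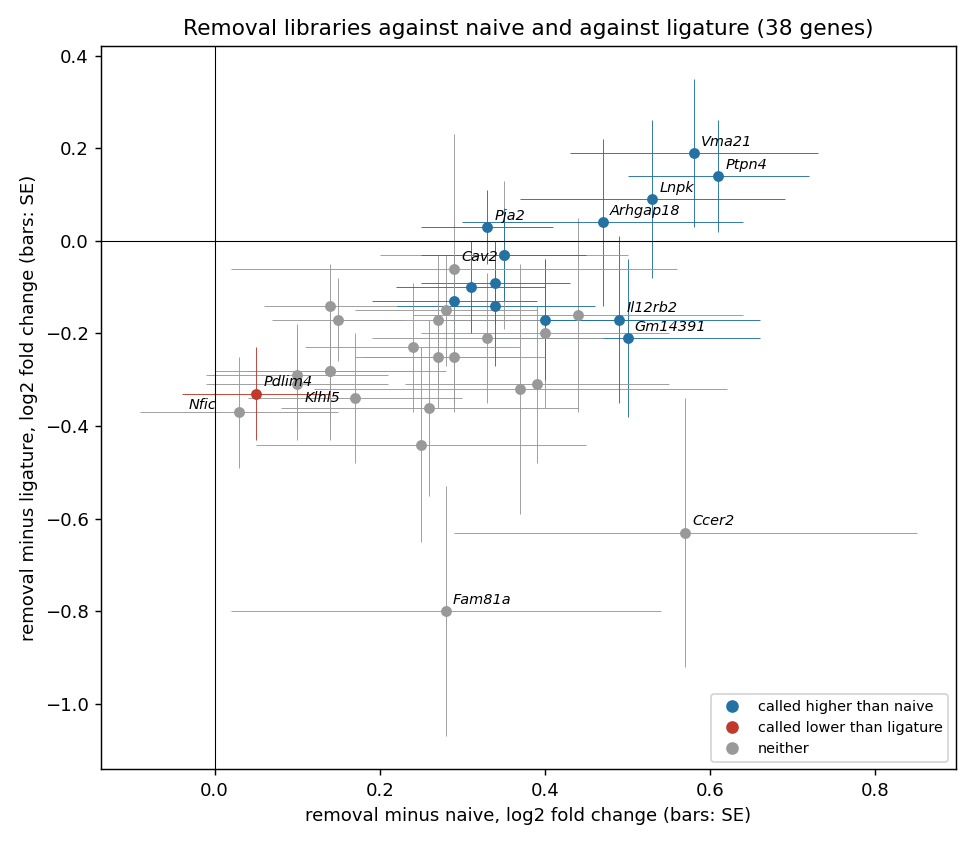
Log2 difference of removal from naive (x axis) against that of removal from ligature (y axis), with bars for the SE, from the edgeR fit, where 2310057J18Rik lies outside the axes and is not drawn. The 13 genes called higher than naive are blue and lie to the right, with Vma21 and Ptpn4 highest, and Pdlim4, called lower than ligature, is red and lies near 0 on the x axis. Both axes use the same removal libraries.

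The gene with the highest ratio rests on few reads. 2310057J18Rik, known by its clone name, measured 3.17, 0, 14.5 and 15.8 normalised counts in naive, 158.5, 39.9 and 14.9 in ligature and 14.5, 2.06, 1.09 and 1.65 in removal libraries. Ligature 1 and, less so, ligature 2 lay above all naive libraries, ligature 3 lay between naive 3 and naive 4, and within set B the ratio was 1.76 against 61.8 within set A. Removal minus ligature was -3.91 ± 1.06 (log2, SE, adjusted p = 0.0276, edgeR), and its adjusted p reached 0.106 when a library was left out. Oip5os1, a long noncoding RNA also known as Cyrano, is the abundant member of the group. It measured 1613, 1221, 1529 and 1369.9 in naive, 1789, 1878 and 1899 in ligature and 1948.5, 1733, 1882 and 1720.3 in removal libraries, so that removal and ligature libraries overlapped each other above all naive ones. It kept 91.9% of its difference and was higher than naive by 0.35 ± 0.1 (log2, SE, adjusted p = 0.0166, edgeR).

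Gm14391, a predicted gene, measured 154, 107.5, 123 and 103 in naive, 215, 168 and 217 in ligature and 163, 169, 170.0 and 187 in removal libraries. The removal libraries were close together above naive 1 (0.5 ± 0.16, log2, SE, adjusted p = 0.036, edgeR), and the adjusted p was 0.0505 without removal 1. Dlx4os, the antisense transcript of Dlx4, ranged over 60.7 to 73.6 in naive, 74.8 to 92.65 in removal and 95.8 to 123 in ligature libraries, in that order without overlap, but neither removal difference was called. Gm11940 measured 235, 292, 224.5 and 219.7 in naive, 605, 271.5 and 300.4 in ligature and 209, 350.1, 363 and 337 in removal libraries. It lies on the strand opposite Krt10, the keratin of differentiating layers, in GENCODE M21, and its counts were 0.215% to 0.323% of the Krt10 counts in all 11 libraries. Across these 11 libraries their log2 normalised counts had a Pearson r of 0.9 and a Spearman coefficient of 0.95, as a description. Reads of the antisense gene cannot be told apart from stray reads of Krt10 here, because the strand setting of the counting is not given in the sources used here.

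Apart from 2310057J18Rik, the little characterised genes had the highest ratios. Ccer2, a coiled-coil protein rich in glutamate, measured 136, 98.8, 145 and 170.5 in naive, 188, 339.6 and 419 in ligature and 305, 161, 168 and 185 in removal libraries. The libraries of set B were the higher ones in every group, with set means of 158, 379.5 and 305 against 117, 188 and 171 in set A for naive, ligature and removal. Fam81a, another coiled-coil protein, measured 65.4, 51.3, 87.2 and 51.0 in naive, 146, 133 and 125 in ligature and 108, 50.5, 77.4 and 72.5 in removal libraries. Its ligature libraries lay close together and 3 of its removal libraries lay in or just below the naive range. Removal minus ligature was -0.8 ± 0.27 (log2, SE, adjusted p = 0.0548, edgeR), and -1.01 with an adjusted p of 0.0146 without removal 1.

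Removal 1 held the highest removal value in 16 of the 40 genes and removal 3 in 19, whereas the lowest was removal 4 in 16 and removal 2 in 15. The spread within the removal group was thus shared by many of the genes. The same counts over all rows of the table are not given here, so it cannot be called particular to the 40. This spread goes with the sets only in part, since removal 3 belongs to set A. With the library set as a term in the fit, 22 of the 40 were higher than naive, the 13 above among them. The other 9 were Ccer2, Cspg4, Dnah8, Acer3, Syne2, H1f0, Camta1, Matr3 and Cav2. Calls rose over the whole table too: 40 of 176 tested genes were higher and 86 lower with the term, against 23 and 43 without it. With the same term 6 of the 40 were lower than ligature, among them 2310057J18Rik, Gm11940, Zfp516, Tfap2b and Pdlim4. Over the table, 10 of 176 tested genes were lower than ligature with the term.

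Pathway lists held few of these genes. Of 89 genes on 6 lists, only 4 were in the table. They were Vma21 (1 of 19 on its list), Lnpk (1 of 17), Ptpn4 (1 of 17) and Pdlim4 (1 of 7). All 4 are among the 40, which carries no weight because the lists were chosen with earlier results of these data known. The other listed genes are absent from the table, so the lists cannot show whether a pathway changed. Large genes were more frequent among the 40 than among the other rows of the table, which include the 13 set aside by name. The median span of the 40 from first to last base, in GENCODE M21, was 60.0 kb. It was 11.8 kb for 137 of the 138 other rows and 17.3 kb for all 22028 annotated protein-coding genes. Spans over 100 kb were found in 14 of the 40 (35.0%), among them Camta1 at 944.6 kb, Fras1 at 410.8 kb, Syne2 at 292.8 kb, Iqgap2 at 264.7 kb and Dnah8 at 253.0 kb, against 11.7% of the other rows. The shortest were Gm11940 at 0.6 kb, H1f0 at 2.1 kb and Ccer2 at 2.8 kb. This is a description of the chosen genes and was not tested.

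**Figure D5:**
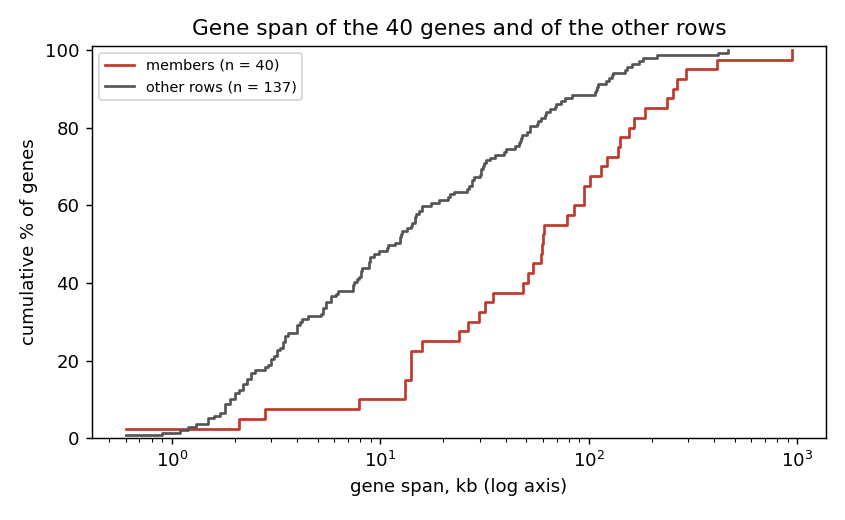
Cumulative percent of genes (y axis) by gene span in kb (x axis, log scale) for the 40 genes and for the 137 other rows with a span. The curve of the 40 lies to the right, with medians of 60.0 kb and 11.8 kb.

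Some of the counts may be shared between genes. In 9 of the 40 a stretch of at least 200 bases was at least 97% identical to, or overlapped by, another gene, which makes the counts of Ccer2 (with Nfkbib), Gm14391 (Gm6710), Il12rb2 (Serbp1), Dnah8, Pou2f1 (Cd247), Mef2a (Lysmd4), Vma21 (a pseudogene), Matr3 (Gm28285) and Hnrnpr (Gm27022) less certain. A gene on the opposite strand overlapped 21 of the 40.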

How the data were processed

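The labels' protocols give polyA RNA of the lifted epithelium, libraries made with a stranded kit, and sequencing on a NovaSeq instrument. Per the submitters' processing notes, cutadapt 2.10, TopHat2 2.1.1, HTSeq 2.01 and DESeq2 1.36.0 were used with GRCm39. The deposited table holds raw counts per gene. It also holds the authors' normalised signal, which is the counts over the library's size factor, a number between 0.757 and 1.21. A further block is a score, the authors' batch-corrected values, from which the library sets were read: of 957 divisions of the libraries tried, the best left a median residual of 4.2e-05% and the next 1.71%. The table has 178 named rows and 993161 empty ones, and how its genes were selected is not given in the sources used here, so adjusted p-values are over this table only.

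All 11 libraries entered 1 edgeR 4.0.16 quasi-likelihood fit (R 4.3.3) on the counts with the deposited size factors and a mean per group. edgeR's low-count filter left 176 genes, with all 40 described genes among them. A gene was called at a Benjamini-Hochberg adjusted p under 0.05. DESeq2 1.42.0, other scaling factors, other filters, a library set term, a replicate block and leaving out each library were the alternatives, and the set term without removal 1 was added after seeing the data. The procedure was tested on simulated data. Of the 40, 1 enters the counts and medians, and its own values are not reported here. The 40 genes, their roles and all lists were chosen with earlier results of these data known. Genes were described in full if they were among the 8 highest ratios with a ligature mean of at least 20, called after removal, next to the limit, among the 6 most abundant, or on a list, and the others by role. Shared stretches, opposite-strand overlaps and spans came from GENCODE M21 on GRCm38, and gene coordinates are not given because the builds differ.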

Additional observations from a re-analysis of the deposited data

Results flagged for a closer look

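In each group of 4 libraries the highest or lowest value was compared with its neighbour, for the 40 genes in naive and in removal libraries (80 groups). Chance picks out about 1 in 20 groups by this rule. Here 3 of the 80 were found, which is no more than that share. All of them were removal replicate 1, the only removal library of set B. 2310057J18Rik measured 14.52 normalised counts in removal replicate 1 and 1.09 to 2.06 in the other removal libraries. Arhgap18 measured 261.3 there and 182.9 to 194.0 in the others. Gm11940 measured 208.8 there and 337.0 to 363.0 in the others, and Krt10, on the opposite strand, was also lowest there among removal libraries. Whether the library set or something else about this library goes with these values was not tested and cannot be told apart with 1 such library.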

How the results depend on the processing

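Of the 40 genes, 13 were higher after removal than in naive libraries. The count was 28 with TMM factors, 25 with median-of-ratios factors, 22 with the library set as a term and 16 with DESeq2, all with the 13 included. It was 13 with no filter, 12 with at least 100 counts in every library (36 tested), 12 with the set term and removal 1 left out, and 5 to 18 when 1 library was left out. Over all tested genes, 23 were called higher in the main fit, 50 with TMM, 40 with median-of-ratios, 40 with the set term and 28 with DESeq2. The table count was 25 with the set term and removal 1 left out, and 13 to 30 when 1 library was left out. Against ligature 3 were lower. That count was 8 with TMM, 18 with median-of-ratios, 5 with DESeq2, 6 with the set term, 9 with the set term and removal 1 left out, and 0 to 8 when 1 library was left out. Over all tested genes, 5 were called lower in the main fit, 12 with TMM, 30 with median-of-ratios, 8 with DESeq2 and 10 with the set term. The table count was 13 with the set term and removal 1 left out, and 0 to 11 when 1 library was left out. The median log2 difference moved from 0.292 to 0.498 with TMM and 0.446 with median-of-ratios against naive, and from -0.207 to -0.356 and -0.406 against ligature. A ratio limit of 1.5 kept 11 genes, the batch-corrected values 39 and a pseudocount of 0.5 kept 40. Library numbers are shared by the groups, and same-number correlations ran from -0.479 to 0.549. Of 11 libraries, 3 correlated best with their own number. The library sets were not taken out of these correlations, so they cannot show whether same-number libraries are paired. With the replicate block 9 of the 40 genes were called against naive, and 0 against ligature (6 at an unadjusted p under 0.05, edgeR). For the unadjusted limit no count over the table is given here. Over the table the block fit called 18 genes higher than naive and 1 lower than ligature.

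Some uncalled log2 differences changed sign. Against ligature, TMM and median-of-ratios gave -0.02 and -0.07 for Ptpn4, -0.08 and -0.13 for Lnpk, -0.11 and -0.16 for Arhgap18, and -0.12 and -0.17 for Pja2, and median-of-ratios gave -0.02 for Vma21. The set term gave 0.11 for Matr3, 0.30 for Cav2 and 0.00 for Oip5os1, and with removal 1 also left out 0.17 for Matr3 and 0.44 for Cav2. Leaving out 1 library gave ranges of -0.52 to 0.14 for Gm11940, -0.27 to 0.05 for Fras1, -0.06 to 0.17 for Lnpk, -0.09 to 0.17 for Arhgap18, -0.17 to 0.08 for Matr3, -0.31 to 0.15 for Cav2 and -0.00 to 0.08 for Pja2. Against naive, Nfic ranged from -0.07 to 0.10, and the set term without removal 1 gave -0.03 for Pdlim4. The cause of these shifts was not tested. The library totals are not known from a selected table, so no limit of detection is given, and 2310057J18Rik, with under 20 normalised counts in 9 of 11 libraries, is the least certain value.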
